A study of Homo sapiens with 8 samples.

Results

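The HOX cluster genes are 19 of the 19073 gene symbols listed in either table of the series, taken as every symbol made of HOX, a cluster letter from A to D and a number. RefSeq holds 39 such genes. The RNA-seq table lists 14 of them, 6 of the HOXC cluster and 8 of the HOXD cluster, and no HOXA or HOXB symbol. The Ribo-seq table lists 12, which are 3 HOXA, 2 HOXB, 4 HOXC and 3 HOXD genes. They were measured in SH-SY5Y, a human cell line grown from a neuroblastoma, in cells carrying the shRPS29 hairpin, which knocks down RPS29, a protein of the small ribosomal subunit, and in cells carrying the control hairpin shCONT. Each of the 4 groups, 2 hairpins in RNA-seq and Ribo-seq, held 2 libraries. Nothing in the labels says that replicates came from separate cultures, so the p-values measure only the spread between these libraries. The labels give no time after knockdown and do not say whether the cells were a clone or a pool.

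HOX genes encode homeodomain transcription factors that give cells a position along the body axis. In vertebrates they lie in 4 clusters, and the paralog number follows the order within a cluster, from anterior genes at low numbers to posterior genes at high numbers. They bind DNA together with TALE homeodomain partners of the PBX and MEIS families. Polycomb complexes keep the clusters silent, and trithorax complexes and retinoic acid receptors support their activity. Several microRNA genes lie inside the clusters, among them those of the miR-10 family.

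RNA-seq libraries held 17539104 to 19156104 counts over 17927 genes and Ribo-seq libraries 2630463 to 4375971 over 14019 genes. RPS29 RNA had 147 and 117 counts in shRPS29, against 2430 and 2872 in shCONT (log2 fold change -4.40, SE 0.115, edgeR adjusted p = 6.32e-12). Of 7 noradrenergic neuroblastoma markers, the transcription factor HAND2 was at 1113 to 1211 CPM and the dopamine hydroxylase DBH at 1270 to 1375 CPM over the RNA libraries, while TH, tyrosine hydroxylase, had 1 and 0 counts in shRPS29 and 4 and 2 in shCONT. Of the 6 markers tested, ISL1 was called higher (log2 fold change 0.38, adjusted p = 0.0013) and none lower. CPM here are counts scaled to library size, with TMM factors.

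In RNA, HOXD8 and HOXD9 were lower in shRPS29 cells, no HOXC gene passed the test, and no HOX gene was called higher. These are bulk samples, in which fewer cells expressing a gene and less RNA per cell cannot be told apart. Of the 14 listed genes, 11 passed the count filter, and 2 of these 11 (18.2%) were called lower and 0 higher by edgeR's quasi-likelihood test (adjusted p below 0.05). Among all 14723 genes tested 16.3% were called lower and 14.4% higher, so the share of HOX genes called lower was near that of all genes. At an unadjusted p below 0.05 there were 2 lower and 2 higher, against 20.8% and 19.7% of all genes. DESeq2 called 2 lower and 0 higher, against 12.9% and 10.7% of all genes, and limma-voom likewise 2 and 0, against 16.3% and 14.2%. Scaling to library totals alone gave 3002 genes higher and 1777 lower over all genes, against 2126 and 2396 with TMM, and HOXD3 was then called higher (log2 fold change 0.32, adjusted p = 0.0457).

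HOXD9, a posterior HOXD gene at chr2:176122719-176124937 (GRCh38.p14), had 32.8 and 33.4 CPM in shRPS29, against 49.4 and 47.5 CPM in shCONT. Its mean was 33.1 ± 0.453 CPM in shRPS29 and 48.5 ± 1.33 CPM in shCONT (SD, n = 2 each), so the groups were well apart and the replicates close together. HOXD9 changed by -0.55 on the log2 scale (SE 0.0879, edgeR adjusted p = 0.000289), and it stayed between -0.58 and -0.52 with any single library left out. Its neighbour HOXD8, at chr2:176129705-176132695, had 22.2 and 19.9 CPM in shRPS29, against 31.1 and 26.8 CPM in shCONT. All shRPS29 values were below all shCONT values here too. HOXD8 changed by -0.46 on the log2 scale (SE 0.114, adjusted p = 0.00696), and without shCONT replicate 1 it was -0.35 and not called (adjusted p = 0.113). The RefSeq span of HOXD8 overlaps the unnamed locus LOC100129455, and the strand setting of the counting is not given in the sources used here, so reads of the overlap cannot be assigned.

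HOXD3 and HOXD4, anterior genes whose RefSeq spans overlap each other, had higher values in both shRPS29 libraries but were not called. HOXD3 had 24.1 and 24.2 CPM in shRPS29, against 21.7 and 19.1 CPM in shCONT (log2 fold change 0.24, SE 0.112, adjusted p = 0.120). HOXD4 had 25 and 22 counts in shRPS29, against 13 and 9 counts in shCONT (log2 fold change 1.01, SE 0.472, adjusted p = 0.124). Within each library, which removes any effect of scaling, HOXD9 had 1.36 and 1.38 times the counts of HOXD3 in shRPS29, against 2.28 and 2.49 times in shCONT. For HOXD8 over HOXD3 the ratios were 0.921 and 0.822 in shRPS29, against 1.43 and 1.40 in shCONT. These ratios were chosen after the values were seen and are given with no test. HOXD9 made up 38.7 and 40.8% of all HOXD counts in shRPS29, against 46.0 and 47.3% in shCONT.

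The other HOXD genes were scarce. HOXD1, the most anterior member, had 14 and 4 counts in shRPS29, against 19 and 19 counts in shCONT (log2 fold change -1.15, SE 0.562, adjusted p = 0.139). Without shRPS29 replicate 1 it was called lower, at -2.24 (adjusted p = 0.0387), and HAGLR overlaps its span. The posterior gene HOXD10 had 31 and 18 counts in shRPS29, against 25 and 47 in shCONT, and HOXD13, which specifies distal limb structures, had 35 and 35 counts in shRPS29, against 34 and 45 in shCONT. Their groups overlapped, at log2 fold changes of -0.63 (SE 0.420, adjusted p = 0.283) and -0.25 (SE 0.340, adjusted p = 0.626). HOXD11 had 4 and 4 counts in shRPS29, against 3 and 5 in shCONT, and did not pass the filter. Over the 11 tested HOX genes, shRPS29 was wholly below shCONT for HOXD1, HOXD8 and HOXD9 and wholly above it for HOXD3 and HOXD4. Over all tested genes 32.9% were wholly below and 32.3% wholly above.

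**Figure D1:**
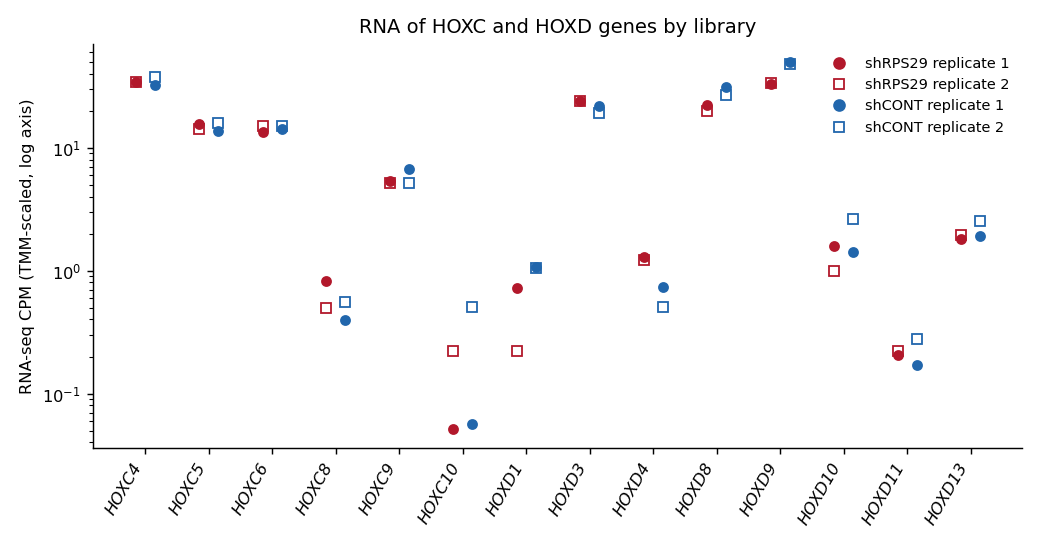
RNA-seq CPM (TMM-scaled, log axis) of the 14 HOX genes listed in the RNA-seq table, 1 point per library, with shRPS29 left of shCONT for each gene. HOXD9 and HOXD8 are lower in both shRPS29 libraries, HOXC4, HOXC5 and HOXC6 lie on top of each other between groups, and HOXC10 and HOXD11 are the scarcest.

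The HOXC genes differed by less than the spread between replicates. HOXC4 had 34.5 and 34.3 CPM in shRPS29, against 32.5 and 37.5 CPM in shCONT, with both shRPS29 values inside the shCONT range. Its log2 fold change was -0.03 (SE 0.0993, adjusted p = 0.878). HOXC5 had 15.6 and 14.3 CPM in shRPS29, against 13.7 and 15.8 CPM in shCONT (log2 fold change 0.02, SE 0.133, adjusted p = 0.920), and HOXC6 13.4 and 15.0 CPM in shRPS29, against 14.1 and 15.1 CPM in shCONT (-0.04, SE 0.131, adjusted p = 0.845). Groups overlapped in all 3. HOXC9, which is known to drive neuronal differentiation of neuroblastoma cells, had 105 and 94 counts in shRPS29, against 119 and 92 in shCONT (log2 fold change -0.16, SE 0.222, adjusted p = 0.627). HOXC8 had 16 and 9 counts in shRPS29, against 7 and 10 in shCONT, and HOXC10 had 1 and 4 counts in shRPS29, against 1 and 9 in shCONT. Neither passed the filter.

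HOXC4, HOXC5 and HOXC6 are not independent of each other. RefSeq starts all 3 at chr12:54016888, and the promoter windows of HOXC4 and HOXC5 (250 bases before to 50 after a start) are the same bases, so it is uncertain to which of them a read was given. That shared window, chr12:54016638-54016937 on the plus strand, is printed beside those of HOXD8 (chr2:176129455-176129754) and HOXD3 (chr2:176157057-176157356), both on the plus strand, as windows of a group that did not pass the test, a gene called lower and an uncalled gene of the same cluster with higher values. Sequences are from RefSeq (GRCh38.p14), which gave windows for 11 of the 19 genes. Capitals mark matches on either strand of CCAAT, of TTTATNG, a form preferred by posterior HOX proteins, and of TGATNNAT, a PBX-HOX form. No match overlaps another here.
HOXC4 and HOXC5: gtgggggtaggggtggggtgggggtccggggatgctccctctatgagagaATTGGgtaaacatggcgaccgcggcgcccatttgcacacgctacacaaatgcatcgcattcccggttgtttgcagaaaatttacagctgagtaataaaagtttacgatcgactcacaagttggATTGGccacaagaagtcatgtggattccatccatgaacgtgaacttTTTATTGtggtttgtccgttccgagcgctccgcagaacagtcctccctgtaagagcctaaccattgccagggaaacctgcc
HOXD8: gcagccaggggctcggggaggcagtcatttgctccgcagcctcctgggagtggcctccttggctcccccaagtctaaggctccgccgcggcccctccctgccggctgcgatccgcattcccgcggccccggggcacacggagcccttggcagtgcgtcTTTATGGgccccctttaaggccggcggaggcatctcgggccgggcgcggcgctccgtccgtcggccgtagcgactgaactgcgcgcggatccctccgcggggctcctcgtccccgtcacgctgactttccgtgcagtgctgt
HOXD3: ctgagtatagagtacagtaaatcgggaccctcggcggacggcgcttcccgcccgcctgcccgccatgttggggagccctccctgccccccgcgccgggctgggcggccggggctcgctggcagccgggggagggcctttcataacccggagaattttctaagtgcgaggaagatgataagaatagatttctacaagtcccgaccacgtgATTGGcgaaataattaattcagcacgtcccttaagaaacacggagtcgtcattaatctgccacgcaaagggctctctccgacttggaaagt
The HOXC4 and HOXC5 window holds CCAAT 2 times and TTTATNG once, the HOXD8 window TTTATNG once and the HOXD3 window CCAAT once. None of these windows holds TGATNNAT. Of 35116 RefSeq promoter windows of the same length, 34.6% hold CCAAT, 9.73% TTTATNG and 7.40% TGATNNAT.

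By cluster, the summed RNA of the 8 HOXD genes was 84.7 and 82.0 CPM in shRPS29, against 107.5 and 100.4 CPM in shCONT, a log2 ratio of the means of -0.32. Every shRPS29 sum lay below every shCONT sum. The 6 HOXC genes summed to 69.8 and 69.5 CPM in shRPS29, inside the range of 67.5 and 74.6 CPM in shCONT, with a log2 ratio of -0.03. Without HOXD9 the HOXD ratio was -0.14, and without HOXD3 it was -0.50. Per kb of the genomic span that the listed genes cover, introns included, the HOXD sum was 1.70 CPM per kb in shRPS29 and 2.12 CPM per kb in shCONT, and the HOXC sum 1.36 CPM per kb in shRPS29 and 1.39 CPM per kb in shCONT. The median log2 fold change was -0.46 over 7 tested HOXD genes, with 2 called lower, and -0.03 over 4 tested HOXC genes, with 0 called by any of the 3 tools and 0 at an unadjusted p below 0.05. The median of all genes was 0.01. The difference between the clusters was not tested, and genes of a cluster are not independent of each other.

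Per kb of gene span the order of RNA levels was led by HOXD9, at 14.9 CPM per kb in shRPS29 and 21.9 CPM per kb in shCONT, and HOXD8, at 7.03 CPM per kb in shRPS29 and 9.68 CPM per kb in shCONT. HOXC9 followed at 1.66 CPM per kb in shRPS29 and 1.86 CPM per kb in shCONT. HOXC6, HOXD3, HOXC4 and HOXC5 lay between 0.797 and 1.17 CPM per kb in either group. Spans include introns, so the whole order depends on span length and is not firm. In shCONT HOXC9 had 5.92 CPM over a span of 3.18 kb, and HOXC4 had 35.0 CPM over 39.1 kb. In shRPS29 HOXC4 had 34.4 CPM and HOXD9, with a span of 2.22 kb, had 33.1 CPM. No HOXA or HOXB RNA can be placed in this order.

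**Figure D2:**
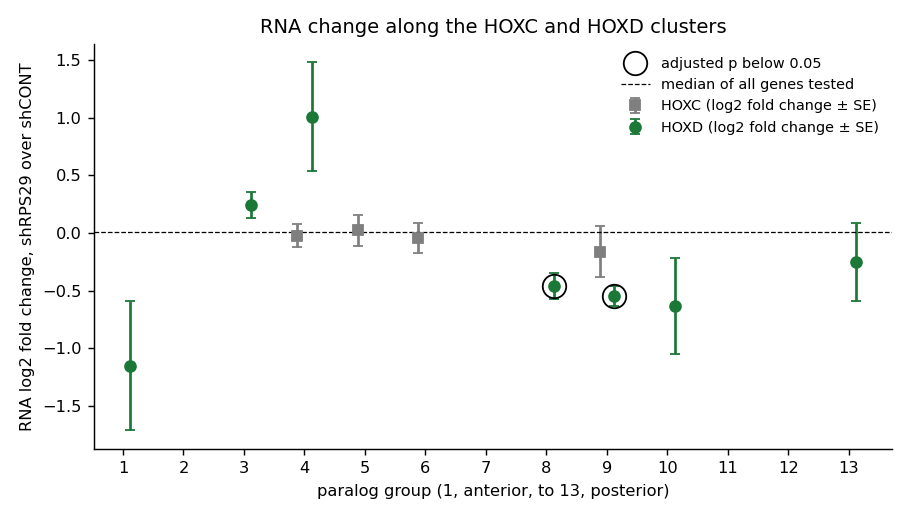
RNA log2 fold change of shRPS29 over shCONT with its SE for the 11 tested HOX genes, by paralog group from anterior (1) to posterior (13), with squares for HOXC and circles for HOXD. The HOXC genes sit within 1 SE of the median of all genes (dashed), while HOXD3 and HOXD4 lie above it and HOXD8 and HOXD9, ringed as called, lie below.

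Of 26 noncoding genes and microRNA genes of the clusters, 4 are listed in RNA-seq and 2 passed the filter. HAGLR, a long noncoding RNA whose span overlaps that of HOXD1, had 19.3 and 21.1 CPM in shRPS29, against 23.2 and 25.1 CPM in shCONT (log2 fold change -0.26, SE 0.112, edgeR adjusted p = 0.0973). It was called lower without shRPS29 replicate 2 (-0.32, adjusted p = 0.0331). HOXD-AS2, an antisense gene of the HOXD cluster, had 15.8 and 11.5 CPM in shRPS29, against 12.1 and 14.7 CPM in shCONT, with overlapping groups (0.03, SE 0.164, adjusted p = 0.910). Genes flanking the clusters were called in both directions, with 3 of 37 tested neighbours higher (8.11%) and 9 lower (24.3%), against 14.4% and 16.3% of all genes. Of 9 tested neighbours of HOXC, 4 were lower (44.4%) and 1 higher (11.1%). Of 9 tested neighbours of HOXD, 2 were lower (22.2%) and 1 higher (11.1%). The lower HOXD neighbours were ATF2 (-0.85, edgeR adjusted p = 9.26e-06), 919284 bases away, and CHN1 (-0.27, adjusted p = 0.014), 1082106 bases away. The mitochondrial import gene MTX2, 78535 bases from HOXD, had 84.6 and 73.9 CPM in shRPS29, against 60.9 and 63.6 CPM in shCONT. It rose (0.35, adjusted p = 0.00626). That call ended without shCONT replicate 1 (0.32, adjusted p = 0.0732). LNPK, on the posterior side, had 52.7 and 52.3 CPM in shRPS29, against 53.4 and 54.8 CPM in shCONT (-0.04, adjusted p = 0.730). Neighbours higher numbered 2 without either shCONT replicate and 7 without shRPS29 replicate 2, and neighbours lower 5 without either shCONT replicate. Neighbours of HOXA and HOXB were well measured, although no HOXA or HOXB gene is listed in RNA-seq: 10 neighbours of HOXA and 9 of HOXB passed the filter.

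In Ribo-seq, which sequences the RNA fragments protected by ribosomes, HOXD3 and HOXB3 stood far above every other HOX gene in all 4 libraries, and neither differed between the groups beyond the spread of replicates. HOXD3 had 39835 and 84863 counts in shRPS29, against 75754 and 36235 counts in shCONT. That was 1.51 and 1.94% of the library in shRPS29, against 2.61 and 1.12% in shCONT, and it ranked 10 and 5 in shRPS29, against 5 and 9 in shCONT, among 14019 genes. In RNA-seq the same gene ranked 7817 and 7826 in shRPS29, against 8161 and 8541 in shCONT, among 17927. The groups overlapped widely (log2 fold change 0.17, SE 0.971, edgeR adjusted p = 0.945). With library totals as the only scaling the value was -0.11.

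Divided by its RNA, both as CPM of library totals, HOXD3 had 697.6 times as much Ribo-seq as RNA-seq signal in shRPS29 and 939.2 times in shCONT. The median gene had a ratio of 0.226 in shRPS29 and 0.297 in shCONT, and 95% of genes lay below 7.57 in shRPS29 and 3.13 in shCONT. HOXD3 ranked 9 of 12088 genes in shRPS29 and 2 of 12076 in shCONT. The other HOX genes with both values lay within the range of ordinary genes. HOXC4 had a ratio of 0.607 in shRPS29 and 0.845 in shCONT, and HOXD8 0.0565 in shRPS29 and 0.116 in shCONT.

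**Figure D3:**
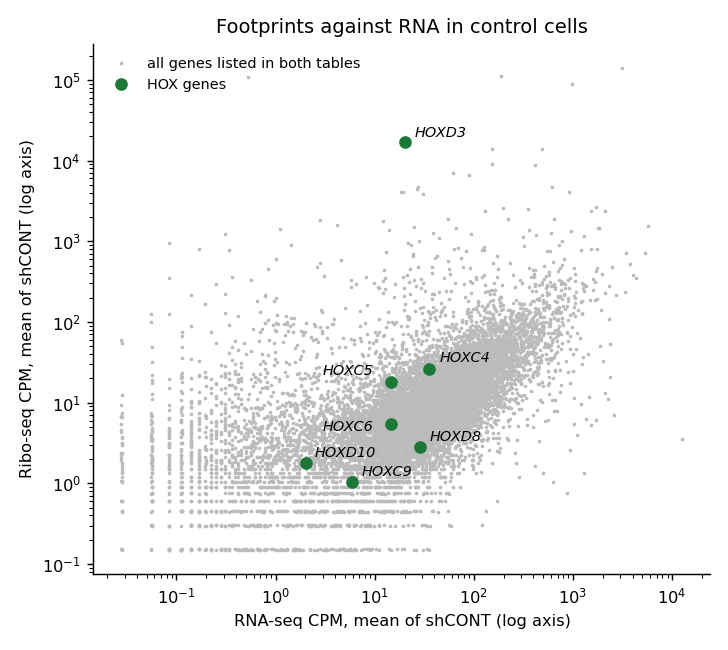
Mean Ribo-seq CPM against mean RNA-seq CPM of the shCONT libraries (TMM-scaled, both axes log), 1 grey point per gene listed in both tables and green points for HOX genes. HOXD3 lies far above the cloud of genes, while HOXC4, HOXC5, HOXC6, HOXC9, HOXD8 and HOXD10 lie within it.

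HOXB3, an anterior HOXB gene, had 5079 and 4057 counts in shRPS29, against 7106 and 1776 counts in shCONT (log2 fold change 0.24, SE 0.777, edgeR adjusted p = 0.903). Its groups overlapped, and without shCONT replicate 1 the value was 1.49. It is not listed in RNA-seq, so it has no ratio. HOXD3 held 7.84 and 20.9 times the counts of HOXB3 in shRPS29, against 10.7 and 20.4 times in shCONT. The other 10 HOX genes together had 427 and 368 counts in shRPS29, against 316 and 153 in shCONT.

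Both genes lie at a microRNA gene of the miR-10 family. RefSeq (GRCh38.p14) places MIR10A, at chr17:48579838-48579947, inside the span of HOXB3 (chr17:48548870-48590241). MIR10B, at chr2:176150303-176150412, lies 2117 bases outside the span of HOXD3 (chr2:176152529-176173098) and 1138 bases from HOXD4, which is not listed in the Ribo-seq table. MIR615, at chr12:54033950-54034045, lies inside HOXC4 and HOXC5. Of the mature microRNAs of these genes, 5 are printed from RefSeq because their genes lie in or beside counted HOX genes. The seed, bases 2 to 8, is in capitals, and no seed is shared among these 5, which do not include hsa-miR-10b-5p.
hsa-miR-10b-3p: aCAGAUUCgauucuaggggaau
hsa-miR-10a-5p: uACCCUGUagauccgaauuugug
hsa-miR-10a-3p: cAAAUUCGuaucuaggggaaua
hsa-miR-615-5p: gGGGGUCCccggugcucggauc
hsa-miR-615-3p: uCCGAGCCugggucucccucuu
HOXC4 and HOXC5, whose spans hold MIR615, had at most 115 and 82 counts in any library. HOXC6, 3127 bases from MIR615, and HOXA9, 3943 bases from MIR196B, had at most 47 and 37. In shCONT, 6 of the 20 highest ratios (30.0%) belong to genes within 5000 bases of a microRNA gene, and HOXD3 itself is counted among them. Among all 12076 genes with a ratio the share was 9.13%. Counting only microRNA genes that overlap the span, which leaves HOXD3 out, it was 5 of 20 (25.0%), against 7.23% of all genes with a ratio. Whether reads of these microRNAs entered the counts was not tested.

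With all libraries taken as unpaired, edgeR called no HOX gene in Ribo-seq. HOXA3, HOXA5, HOXA9, HOXB7, HOXC6 and HOXC9 were higher in both shRPS29 libraries. Calls of HOX genes with a replicate block differed and are given at the end. Of the 12 listed, 10 passed the filter, and 0 were called in either direction, against 7.96% of all 11853 genes higher and 0.607% lower. At an unadjusted p below 0.05, 3 were higher (HOXA3, HOXA5 and HOXC9) and 0 lower, against 16.6% and 6.50% of all genes. DESeq2 called 1 higher, HOXC9 (adjusted p = 0.0484), and 0 lower, against 9.45% and 1.39% of all genes. Limma-voom called 0 in either direction, against 5.65% higher and 1.44% lower. In 6 of the 10 every shRPS29 value exceeded every shCONT value and in 0 the reverse, against 29.0% and 26.7% of all genes. The count filter bears on this. HOXA9, HOXB7 and HOXC9, with 0, 1 and 0 counts in shCONT replicate 2, passed it through their shRPS29 counts. HOXD10, wholly lower in shRPS29, did not pass. The median log2 fold change was 1.73 over the 10 genes and 0.04 over all genes. With no count filter it was 0.81 over the 12 listed HOX genes (0.09 over all genes). With at least 50 counts in each group mean it was 0.40 over 4 HOX genes (0.02 over all genes). Without shRPS29 replicate 1 it was 0.67 over the 11 HOX genes then tested, and without shCONT replicate 2 it was 0.99, also over 11.

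HOXA3 had 88 and 37 counts in shRPS29, against 16 and 23 counts in shCONT (log2 fold change 1.94, SE 0.751, edgeR adjusted p = 0.124). HOXA5 had 70 and 36 counts in shRPS29, against 16 and 16 in shCONT (1.96, SE 0.771, adjusted p = 0.130). HOXA9 had 37 and 34 counts in shRPS29, against 17 and 0 in shCONT (2.21, SE 1.13, adjusted p = 0.258). The groups did not overlap in any of these 3, and replicate 1 of shRPS29 was the highest library in each. HOXB7 had 42 and 18 counts in shRPS29, against 13 and 1 in shCONT (2.35, SE 1.12, adjusted p = 0.218), again with replicate 1 of shRPS29 highest. Without shRPS29 replicate 1 the values were 0.67 for HOXA3, 0.91 for HOXA5, 1.74 for HOXA9 and 1.11 for HOXB7. Without shCONT replicate 2 HOXA9 was at 1.17 and HOXB7 at 1.40. Without shCONT replicate 1 HOXB7 was at 4.94, and HOXA9 was called higher (adjusted p = 0.00945), but against a single shCONT library with 0 counts.

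The 3 HOXA genes, HOXB7 and HOXB3 are among 716 tested genes that the Ribo-seq table lists and the RNA-seq table does not. In those 716, 29.9% were called higher and 0.279% lower, and the median log2 fold change was 2.08, against -0.03 in the 11137 tested genes listed in both. Their median level was 18.3 and 9.41 CPM in shRPS29, against 4.18 and 2.43 CPM in shCONT, again highest in replicate 1 of shRPS29. All shRPS29 values lay above all shCONT values in 67.5% of them and below in 5.03%. The filter can pass a gene through its shRPS29 counts, as it did HOXA9 and HOXB7, so this median change and these shares depend on it. How many of the 716 passed in that way was not counted. The median of the 3 HOXA genes was 1.96 and HOXB7 was at 2.35, near the median of this set, while HOXB3, at 0.24, was far below it.

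**Figure D4:**
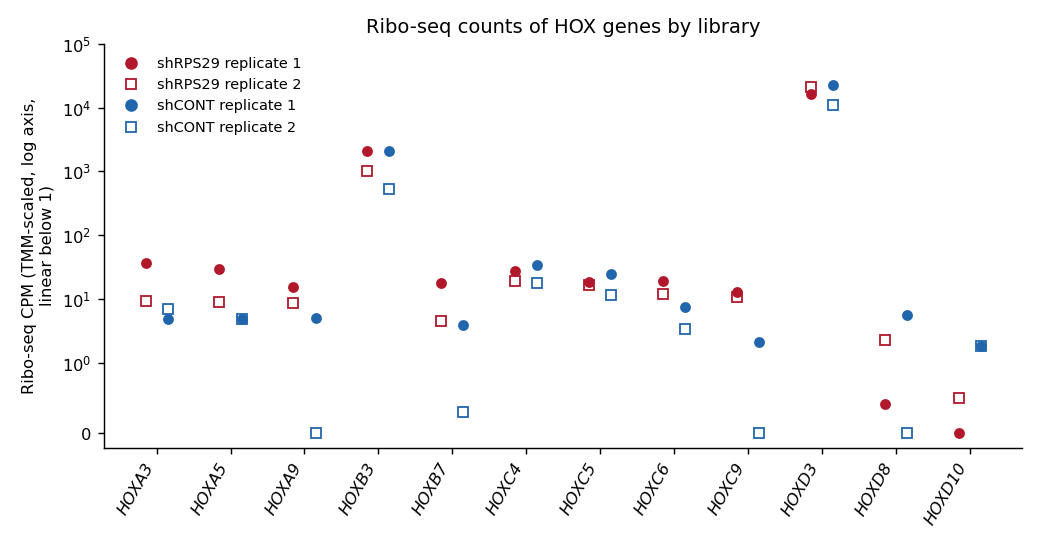
Ribo-seq CPM (TMM-scaled, log axis, linear below 1) of the 12 HOX genes listed in the Ribo-seq table, 1 point per library, with shRPS29 left of shCONT for each gene. HOXD3 and HOXB3 lie far above the rest in every library. HOXA3, HOXA5, HOXA9, HOXB7, HOXC6 and HOXC9 are higher in both shRPS29 libraries, and HOXD10 is lower in both.

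Of the HOXC genes, HOXC4 had 67 and 76 counts in shRPS29, against 115 and 58 counts in shCONT (log2 fold change -0.15, SE 0.584, edgeR adjusted p = 0.920). HOXC5 had 45 and 67 counts in shRPS29, against 82 and 38 in shCONT (-0.02, SE 0.613, adjusted p = 0.991). Groups overlapped in both. HOXC6 had 46 and 47 counts in shRPS29, against 25 and 11 in shCONT (1.50, SE 0.767, adjusted p = 0.256). HOXC9 had 31 and 42 counts in shRPS29, against 7 and 0 in shCONT (3.43, SE 1.18, adjusted p = 0.0814). These groups did not overlap, and without shCONT replicate 1, which leaves shCONT with 0 counts, HOXC9 was called (adjusted p = 0.0100).

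Translational efficiency, the change of footprints beyond that of RNA, could be tested for 5 HOX genes. None was called by the edgeR interaction test, against 2.97% of 10648 genes higher and 1.08% lower, while 2 were higher and 0 lower at an unadjusted p below 0.05, against 13.6% and 12.3% of all genes. These were HOXC9 (log2 change 3.58, SE 1.18, adjusted p = 0.107) and HOXC6 (1.49, SE 0.647, adjusted p = 0.191). HOXC4 was at -0.18 (adjusted p = 0.862), HOXC5 at -0.08 (adjusted p = 0.950) and HOXD3 at -0.10 (adjusted p = 0.945). No other tool was run on this interaction.

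Footprints of the HOXD genes other than HOXD3 were few where they were listed. HOXD8 had 1 and 9 Ribo-seq counts in shRPS29, against 19 and 0 counts in shCONT, and HOXD10 had 0 and 2 counts in shRPS29, against 6 and 6 in shCONT. Neither passed the filter. HOXD9 is not listed in the Ribo-seq table, whose rows each total at least 3 counts. Of 5769 protein-coding genes with at least 40 RNA CPM in shCONT, 41 (0.711%) are likewise not listed there. The fall of HOXD9 RNA therefore has no footprint measurement beside it, and that of HOXD8 only counts too low to test.

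Partners and regulators of HOX genes are given from lists by their RNA. Of 9 TALE cofactors, 3 fell (33.3%) and 0 rose, against 16.3% and 14.4% of all genes. At an unadjusted p below 0.05, 4 were lower and 1 higher, against 20.8% and 19.7% of all genes. PBX3, a DNA-binding partner of HOX proteins, had 39.8 and 43.5 CPM in shRPS29, against 53.8 and 60.7 CPM in shCONT (log2 fold change -0.46, SE 0.0908, edgeR adjusted p = 0.00145). Groups did not overlap. MEIS3 (-0.34, adjusted p = 0.00393) fell too. Without shCONT replicate 1 MEIS3 was not called (-0.30, adjusted p = 0.0896), and without shRPS29 replicate 2 there was 1 cofactor called higher. The list's median was -0.10. In Ribo-seq 1 of the 9 was called higher (11.1%) and 0 lower, against 7.96% and 0.607% of all genes. This was PKNOX2, with 174 and 124 counts in shRPS29, against 29 and 3 in shCONT (3.42, adjusted p = 0.0138).

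Of 11 members of Polycomb repressive complex 2, which methylates histone H3 at lysine 27, JARID2 fell and EED rose, which is 9.09% each way, against 16.3% of all genes lower and 14.4% higher. JARID2, a DNA-binding accessory subunit, had 32.8 and 31.2 CPM in shRPS29, against 65.8 and 66.9 CPM in shCONT (log2 fold change -1.05, SE 0.0838, edgeR adjusted p = 6.81e-07). In Ribo-seq it rose, at 41.6 and 26.3 CPM in shRPS29, against 8.35 and 8.49 CPM in shCONT (2.00, adjusted p = 0.0482). It was the 1 of 11 called higher there (9.09%), with 0 lower, against 7.96% and 0.607% of all genes. EED, the core subunit that binds the methylated lysine, rose by 0.33 (adjusted p = 0.0220). Its call ended with DESeq2 (adjusted p = 0.0683) and without shCONT replicate 1, shCONT replicate 2 or shRPS29 replicate 1. The list's median was 0.11.

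Of 18 members of Polycomb repressive complex 1, 5 rose (27.8%) and 4 fell (22.2%), against 14.4% and 16.3% of all genes. PCGF1 rose, with 33.4 and 30.6 CPM in shRPS29, against 18.4 and 17.9 CPM in shCONT (log2 fold change 0.82, edgeR adjusted p = 5.55e-05). PHC1 rose (0.54, adjusted p = 6.59e-05), and PCGF3 fell, with 35.2 and 39.7 CPM in shRPS29, against 75.2 and 73.9 CPM in shCONT (-0.99, adjusted p = 1.42e-06). PCGF1 and PCGF3 define different variants of the complex. Members rising numbered 2 without shCONT replicate 2, and members falling 2 without either shCONT replicate.

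Of 14 genes on a list of trithorax-group genes, H3K27 demethylases and others, 1 rose (7.14%) and 4 fell (28.6%), against 14.4% and 16.3% of all genes. The list's median was -0.08. The list, called trithorax genes below, also holds genes of neither kind, among them MLLT3 and DOT1L. KMT2A, a histone H3 lysine 4 methyltransferase required for HOX expression, had 68.8 and 77.6 CPM in shRPS29, against 111.1 and 106.1 CPM in shCONT (log2 fold change -0.57, edgeR adjusted p = 0.000115). Its groups did not overlap. MLLT3, a super elongation complex subunit, fell too (-0.81, adjusted p = 0.000408). Its Ribo-seq level rose, with 85.7 and 18.1 CPM in shRPS29, against 10.1 and 4.85 CPM in shCONT (2.77, adjusted p = 0.0261). The replicates of shRPS29 lay far apart, and MLLT3 was not called by the edgeR interaction test (3.50, adjusted p = 0.0644). In Ribo-seq 1 of the 14 was called higher (7.14%) and 0 lower, against 7.96% and 0.607% of all genes. Members falling numbered 2 without either shCONT replicate. The 1 rising, DOT1L, was not called by DESeq2 (adjusted p = 0.0719) or without either shCONT replicate or shRPS29 replicate 2.

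Of 12 tested retinoic acid and axial regulators, 4 fell (33.3%) and 0 rose, against 16.3% and 14.4% of all genes. At an unadjusted p below 0.05, 6 were lower and 0 higher, against 20.8% and 19.7% of all genes, and the median was -0.26. RXRA, a partner of retinoic acid receptors, had 33.6 and 34.7 CPM in shRPS29, against 50.4 and 52.1 CPM in shCONT (log2 fold change -0.59, edgeR adjusted p = 0.000157). ALDH1A3, which makes retinoic acid, fell (-0.69, adjusted p = 0.00146), as did RXRB (-0.46, adjusted p = 0.00208). Without shCONT replicate 1 RXRB was not called (adjusted p = 0.0541).

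**Figure D5:**
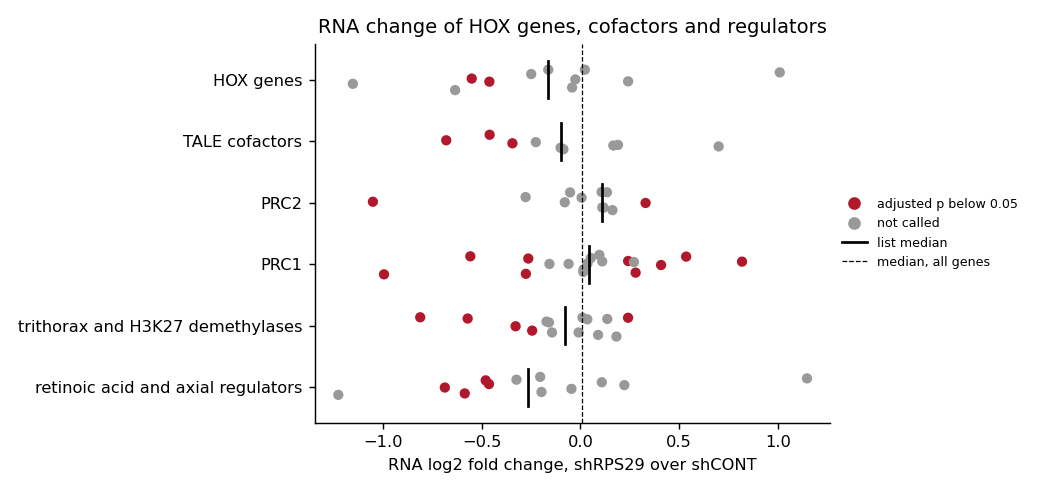
RNA log2 fold change of shRPS29 over shCONT for every tested gene of each list, 1 point per gene, red where the adjusted p was below 0.05, with the list median as a bar and the median of all genes dashed. The called TALE and retinoic acid genes all lie below 0, while called Polycomb genes lie on both sides.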

How the data were processed

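RNA-seq and Ribo-seq libraries of shRPS29 and shCONT SH-SY5Y cells were analysed from 2 deposited tables of counts per gene symbol. The authors built RNA-seq libraries with a stranded total RNA kit and made Ribo-seq libraries from RNase I footprints, per the labels' protocols. The submitters' processing notes name hg38, Trim Galore, Salmon, Bowtie2, STAR and featureCounts. Their roles, annotation and strand setting are not stated in those notes. Each table was tested with edgeR 4.0.16 (R 4.3.3; quasi-likelihood test, TMM, filterByExpr, Benjamini-Hochberg over all genes tested, called below 0.05), and translational efficiency as an assay by condition interaction over 8 libraries. The steps were tested on simulated data. Depth was 17539104 to 19156104 counts in RNA-seq and 2630463 to 4375971 in Ribo-seq, so Ribo-seq limits low counts most. Alternatives were DESeq2 1.42.0, limma-voom (limma 3.58.1), other scalings and filters, a replicate block and each library left out. Levels per kb use RefSeq spans (GRCh38.p14). The members and lists were chosen with earlier results of these data known. Every HOX symbol is accounted for, and other lists name at most 3 called members, those of smallest p, except 1 that is not reported here. Neighbours are 5 genes on each side of a cluster.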

Additional observations from a re-analysis of the deposited data

How the results depend on the processing

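HOXD9 stayed called lower in every alternative run. With library totals as the only scaling, which moved the median of all genes to -0.21 in Ribo-seq and 0.08 in RNA-seq against 0.04 and 0.01 with TMM, 1 HOX gene was called higher in RNA, the HOXC and HOXD log2 ratios of summed CPM were 0.048 and -0.24, and the signs of HOXC4 (0.051), HOXC6 (0.035) and LNPK (0.033) in RNA and HOXB3 (-0.066) and HOXD3 (-0.11) in Ribo-seq turned. In the same setting 1 TALE cofactor and 2 trithorax genes rose, and 2 PRC1 and 2 trithorax genes fell. With TMM, the HOXD ratio was -0.14 without HOXD9 and -0.50 without HOXD3. With DESeq2, 1 HOX gene was higher in Ribo-seq, and 0 PRC2, 2 PRC1 and 0 trithorax genes rose. With limma-voom 3 PRC1 genes rose and HOXC5 footprints were at 0.064. With at least 50 counts in each group mean, HOXC4 and HOXC5 footprints were at 0.20 and 0.31.

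Replicate numbers did not pair the libraries: deviations of same-numbered libraries correlated at -0.0377 in RNA-seq and 0.11 in Ribo-seq across genes. With the replicate block, 2 HOX genes were higher in Ribo-seq, HOXA9 (adjusted p = 0.0467) and HOXC9 (adjusted p = 0.0166), 0 trithorax genes rose, and HOXC5 was at 0.074 in footprints and 0.013 in translational efficiency. Under the block Ribo-seq called 397 genes lower, against 72, and translational efficiency 14 higher and 0 lower, against 316 and 115.

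With 1 library left out, the lone sample is assumed to vary like the others. HOX genes called lower in RNA then numbered 1 to 3 and HOX genes higher in Ribo-seq 0 to 2. The HOXC ratio ranged from -0.098 to 0.045. TALE genes rising numbered 0 to 1, PRC2 genes rising 0 to 2, PRC1 genes rising 2 to 4 and falling 2 to 5, trithorax genes rising 0 to 1 and falling 2 to 5, and noncoding genes falling 0 to 1. RNA changes ranged from -0.12 to 0.081 for HOXC4, -0.076 to 0.13 for HOXC5, -0.12 to 0.034 for HOXC6, -0.34 to 0.043 for HOXC9 and -0.22 to 0.24 for HOXD-AS2. Footprint changes ranged from -0.60 to 0.37 for HOXC4, -0.50 to 0.58 for HOXC5, -0.50 to 1.49 for HOXB3 and -0.28 to 0.75 for HOXD3, and translational efficiency from -0.71 to 0.49 for HOXC4, -0.65 to 0.66 for HOXC5 and -0.46 to 0.41 for HOXD3. Over all genes, calls ranged from 1225 to 2739 higher and 1496 to 2876 lower in RNA-seq, and from 247 to 694 higher and 5 to 53 lower in Ribo-seq. In translational efficiency they ranged from 0 to 448 higher and 0 to 739 lower.

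Over all genes, Ribo-seq called 521 higher with library totals, 170 higher and 12 lower with at least 50 counts, and 165 lower with DESeq2 and 171 with limma-voom. Translational efficiency called 60 lower with no count filter. Ribo-seq depth limits the HOX genes other than HOXD3 and HOXB3, none of which passed 115 counts in a library. Levels per exon or coding length were not run. The causes of these differences were not tested.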
